A study of Mus musculus with 10 samples.

Results

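The genes described are the rows of the deposited ribosome count table whose symbol is Zfp followed by a number of 3 digits starting with 5 to 9. The rule used symbols alone and found 148 of 11011 genes. These genes were followed over 10 ribosome profiling libraries of E14 cells, a mouse embryonic stem cell line that has a 129/Ola background, was derived from a blastocyst and was grown on gelatine with serum and LIF. The 5 groups held 2 libraries each: wild type (WT), and cells labelled Dgcr8 knockout, Drosha knockout, Dicer knockout and Ago1&Ago2 double knockout (Ago knockout below). All groups were treated alike with cycloheximide, which arrests elongation, before RNase I digestion, and all received Drosophila spike-ins. The labels do not say whether a knockout line was a single clone, which part of each gene was removed, or whether replicates came from separate cultures, so the p-values cover no more than the variation among these libraries, which may be technical. The stated aim was to record ribosome binding in WT cells and in cells lacking parts of the small RNA pathway.

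Most high-numbered Zfp genes encode C2H2 zinc finger proteins, in which each finger folds around a zinc ion and reads a few bases of DNA. In many of them a KRAB box at the amino terminus binds the corepressor Trim28, which brings in the histone methyltransferase Setdb1, and in early embryos and embryonic stem cells this machinery represses retroelements and keeps imprints. Other members lack a KRAB box and serve as developmental regulators, chromatin adaptors or ribosome factors. Drosha and its partner Dgcr8 cut primary microRNA transcripts in the nucleus, Dicer cuts the resulting hairpins, and Argonaute proteins carry the mature microRNA, which lowers the translation and stability of mRNAs that pair with its seed. A ribosome footprint count follows both the amount of an mRNA and how often it is translated, and no matched mRNA data were analysed here. In a bulk culture, fewer cells of a type and less RNA per cell cannot be told apart.

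The libraries held between 1754710 and 80850950 counts, and 3 counts corresponded to between 0.0364 and 1.65 counts per 1000000 counts (CPM, with scaled library sizes). Footprints on Drosha were lower in the Drosha knockout (log2 fold change -2.59), those on Dicer1 in the Dicer knockout (-2.72) and those on Ago2 in the Ago knockout (-2.94), with edgeR adjusted p-values of 0.0067, 0.0026 and 0.0059. Footprints on Dgcr8 rose by 2.14 in the libraries labelled Dgcr8 knockout (edgeR adjusted p = 0.015). They went from 32.7 and 33.1 CPM in WT to 145 and 146 CPM. These counts show no loss of Dgcr8, although footprints outside a deleted part would not show the deletion. Footprints on Dgcr8 were also higher in the Drosha knockout (2.48, edgeR adjusted p = 0.0028, 169 and 197 CPM). So were those in the Dicer knockout (1.09, adjusted p = 0.021, 64.5 and 76.1 CPM) and the Ago knockout (1.07, adjusted p = 0.047, 74.6 and 63.5 CPM). Ago1 did not pass the test in the Ago knockout (0.37, adjusted p = 0.67). The Dgcr8 call was lost without the first or second WT library (adjusted p = 0.24 and 0.44) or the second library labelled Dgcr8 knockout (0.083). Without the second WT library the Drosha (0.098) and Ago2 (0.062) calls were lost too. Pluripotency markers were measured for 21 of 21 listed genes and summed to between 6807 and 8587 CPM over all groups. Single markers differed: edgeR called Klf2 and Klf4 in the Drosha and Ago knockouts, 1 as higher and 1 as lower. In the Dicer knockout it called Klf4, Klf2 and Lin28a, 1 as higher and 2 as lower, and in the libraries labelled Dgcr8 knockout 0. The 13 measured of 18 primitive endoderm markers summed to between 14342 and 14988 CPM in WT and to between 3478 and 9879 CPM in the knockout groups, with Gata6 at 0 in the Dicer knockout. The 6 measured of 12 trophectoderm markers summed to between 163 and 196 CPM in WT, 396 and 399 CPM in the Drosha knockout and 645 and 878 CPM in the Dicer knockout. The 5 measured of 12 fibroblast markers summed to between 250 and 277 CPM in WT and 46.9 and 190 CPM in the knockout groups. The 4 measured of 10 neural markers summed to between 160 and 243 CPM in WT, 140 and 300 CPM over the groups labelled Dgcr8, Drosha and Dicer knockout, and 469 and 516 CPM in the Ago knockout, where Ncam1 alone had 367 and 377 CPM. Of the 5 measured of 13 genes of the 2-cell-like state, edgeR called 0 as higher in the libraries labelled Dgcr8 knockout, 2 in the Drosha knockout (Tmem92 and Zscan4d) and 3 each in the Dicer and Ago knockouts (also Usp17le). Tmem92 had 1.11 and 0.332 CPM in WT and between 8.27 and 38.3 CPM in these 3 knockouts. The 5 summed to between 53.1 and 58.6 CPM in WT and 85 and 111 CPM in the Ago knockout, with Gm8300 at 0 in WT. The part of these marker differences in the results for the Zfp genes was not tested.

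MicroRNAs of the embryonic stem cell seed families are shown because 2 of the 3 Zfp genes that changed carry matches to them. The mature sequences are RefSeq's, 5′ to 3′, with the seed (bases 2 to 8) in capitals. The top pair share 1 seed, and the bottom pair share another that is shifted by a single base.
miR-294-3p: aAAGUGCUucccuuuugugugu
miR-295-3p: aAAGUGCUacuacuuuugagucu
miR-20a-5p: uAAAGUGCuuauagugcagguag
miR-93-5p: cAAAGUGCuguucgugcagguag

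The DNA letters complementary to these seeds are AGCACTT for the miR-294 pair and GCACTTT for the miR-20a pair, and the run AGCACTTT holds both, overlapping. They were searched on the transcript strand in the 3′ UTR of the transcript with the longest coding sequence (GENCODE M21, GRCm38). Zfp827 held 3 AGCACTTT runs in a 3′ UTR of 4094 bases, at chr8:79191979-79191986, chr8:79193137-79193144 and chr8:79193476-79193483 on the plus strand, shown in that order with the match in capitals.
Zfp827 site a: gtttctgtgcAGCACTTTattgcggcag
Zfp827 site b: caacttttttAGCACTTTggaaagagtc
Zfp827 site c: tagggttctaAGCACTTTctctctcctg

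Zfp652 held 3 GCACTTT matches and no AGCACTT in a 3′ UTR of 8294 bases, at chr11:95765703-95765709, chr11:95771625-95771631 and chr11:95772113-95772119 on the plus strand.
Zfp652 site a: tatgcgttgtGCACTTTttcctggcta
Zfp652 site b: gaggtcacttGCACTTTctcatttctt
Zfp652 site c: caatggaaatGCACTTTtttttaattt

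The 3′ UTR of Zfp819, the third of the genes that changed, was 367 bases long and held neither motif. At least 3 AGCACTT matches were found in 0.627% of 10848 genes with a 3′ UTR, and in 2.28% of the 832 genes whose 3′ UTR was 0.8 to 1.25 times as long as that of Zfp827. At least 3 GCACTTT matches were found in 0.295% of all genes, in 0.601% of the genes near Zfp827 in UTR length and in 6.2% of the 129 genes near Zfp652. At least 1 AGCACTT was found in 41.5% of the genes near Zfp827, and at least 1 GCACTTT in 33.5% of them and 49.6% of those near Zfp652. Zfp genes that did not pass the test also held 3 matches, Zfp563 and Zfp800 to AGCACTT, and Zfp597 and Zfp704 to GCACTTT. Over all Zfp genes of the set with a 3′ UTR, 24 of 140 (17.1%) held AGCACTT, against 15.8% of all genes, and 18 of 140 (12.9%) held GCACTTT, against 13.4%. In all, 9 microRNAs with 7 seed matches were searched. The other matches were TTTGCAC of miR-19b-3p (17.1% against 12%), TACTTGA of miR-26a-5p (14.3% against 10.5%), ATAAGCT of miR-21a-5p (9.29% against 6.84%), TGCTGCT of miR-16-5p (23.6% against 22.6%) and GTGCAAT of miR-92a-3p (4.29% against 6.54%). A match describes the letters of the transcript and is not a measured binding site.

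By translation of the longest coding sequence, a KRAB box was found in 88 of the 148 genes (59.5%) and at least 1 C2H2 finger in 144 (97.3%). The number of fingers had a median of 11 and a range of 0 to 33, with a median of 12 in genes with a KRAB box and 8 in those without. No finger of the searched pattern was found in Zfp609, Zfp704, Zfp750 and Zfp839. Chromosome 7 held 37 of the genes, chromosome 17 held 23, chromosome 4 held 16 and chromosome 8 held 12. Close copies are common in this family, so reads can be shared: 31 genes (20.9%) had over 50% of their coding 28-mers in another gene, and 78 (52.7%) had under 5%. The median shared percentage was 17.2 with a KRAB box and 0.147 without, and Zfp706 (99), Zfp991 (98.7) and Zfp992 (92.6) had the highest values, so their counts are uncertain.

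In WT cells the Zfp genes had few footprints for their length. Their footprint density, in CPM per kb of coding sequence, had a median of 4.38 and a range of 0.497 to 105, beside a median of 20.8 over all genes and 6.43 over the 124 genes from Zfp1 to Zfp499. The median density was 3.77 for the 88 genes with a KRAB box and 6.31 for the 60 without. Genes with a KRAB box also shared more of their coding 28-mers, and the part of this in the difference was not tested. All 148 genes together took 0.236% and 0.249% of the counts of the WT libraries.

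The highest densities belonged to ribosome factors. Zfp593, whose relative in yeast takes part in export of the large ribosomal subunit, had densities of 98.8 and 111 (105 ± 8.76, SD, n = 2). Zfp622, which takes part in late maturation of the large subunit in the cytoplasm, had 83.2 and 98 (90.6 ± 10.5, SD, n = 2). The KRAB gene Zfp568, known for repressing a placental transcript of Igf2, followed with 54.6 and 65.9 (60.3 ± 7.95, SD, n = 2). Zfp710 reached 55.3 ± 9.35, Zfp655 44.8 ± 2.07 and Zfp961 43.1 ± 3.82 (SD, n = 2 each). The values of the WT libraries overlapped between the neighbours Zfp568 and Zfp710 and between Zfp655 and Zfp961, and did not overlap between Zfp593 and Zfp622, Zfp622 and Zfp568, or Zfp710 and Zfp655. At the other end, Zfp827 ranked 147 with 0.515 ± 0.0383 (SD, n = 2).

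**Figure D1:**
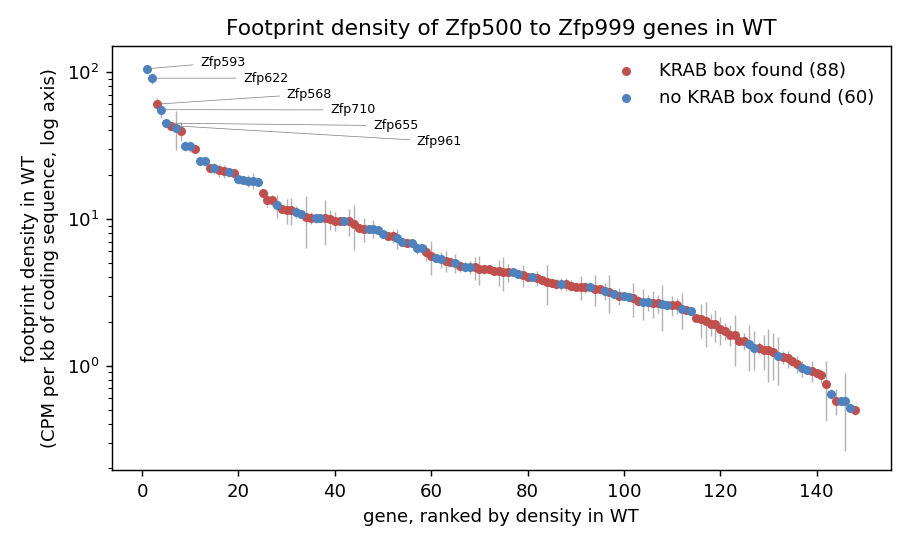
Footprint density in WT (CPM per kb of coding sequence, log axis) of the 148 Zfp genes, ranked from high to low; points are means of 2 libraries, vertical bars run between the 2 libraries, and colours separate the 88 genes with a KRAB box from the 60 without. Zfp593 (105) and Zfp622 (90.6) stand at the top, and the median gene lies at 4.38.

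The share of all counts on the 148 genes was 0.305% and 0.313% in the libraries labelled Dgcr8 knockout, 0.283% and 0.26% with Drosha knocked out, 0.25% and 0.281% with Dicer knocked out and 0.256% and 0.245% in the Ago knockout. Both libraries labelled Dgcr8 knockout lay above the other 8 libraries, and the Ago libraries overlapped the WT libraries. With 2 libraries against 2, an exact permutation test cannot give a p below 0.333. The share on Zfp1 to Zfp499 was 0.435% and 0.491% in WT and 0.474% and 0.455% in the libraries labelled Dgcr8 knockout, which overlap. The densest of these genes had 1312 CPM per kb in WT beside a median of 6.43, so this share need not follow most of them.

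**Figure D2:**
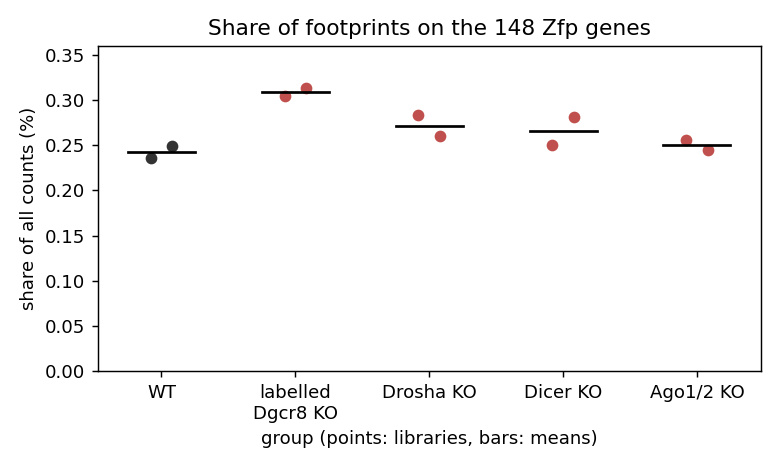
Share of all counts (%) that fell on the 148 Zfp genes in each library; points are libraries and bars are means of 2. The libraries labelled Dgcr8 knockout sit at 0.305% and 0.313%, above the WT libraries at 0.236% and 0.249%.

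All changes below are log2 fold changes from edgeR's quasi-likelihood test with Benjamini-Hochberg adjustment over the 10978 genes tested, and a gene is called at an adjusted p under 0.05. Of the 148 genes 147 were tested, and Zfp991 was removed by the filter on low counts. In the libraries labelled Dgcr8 knockout against WT, most Zfp genes had slightly higher values and none was called. The estimate was above 0 for 113 of 147 genes (76.9%; 51.7% of all genes), and the median was 0.35 beside 0.02 over all genes and 0.16 over Zfp1 to Zfp499. Both libraries lay above both WT libraries for 56 genes (38.1%; 22% of all genes) and below them for 11 (7.48%; 22.9% of all genes). Of the 124 genes from Zfp1 to Zfp499, 42 lay above (33.9%) and 17 below (13.7%), and 75 had estimates above 0 (60.5%). The background of called genes was 0.0729% (0.0547% higher and 0.0182% lower), or 8 genes, so few genes of any kind passed in this comparison. At an unadjusted p under 0.05, 13 genes were higher (8.84%; 5.1% of all genes) and 1 was lower (0.68%; 4.71%). Limma-voom called none, and DESeq2 called 1, Zfp819 (0.68%, where 1.46% of all genes were called in either direction).

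The shift was present with and without close copies. Among the 117 tested genes with at most 50% of their coding 28-mers in another gene, 85 had estimates above 0, with a median of 0.30. With a KRAB box, 76 of 87 tested genes had estimates above 0, with a median of 0.38; without it, 37 of 60 did, with a median of 0.19. The 4 genes with the smallest p-values were Zfp819 (2.13, SE 0.49, adjusted p = 0.24), Zfp719 (1.47, adjusted p = 0.32), Zfp990 (0.89, adjusted p = 0.35) and Zfp787 (-1.69, adjusted p = 0.35), and none passed edgeR's test. The KRAB gene Zfp719 had 6.73 and 5.02 CPM in WT and 13.9 and 18.7 CPM in the libraries labelled Dgcr8 knockout. Zfp787 had 8.67 and 9.29 CPM in WT and 3.9 and 1.2 CPM there. Both sets of libraries were separated in each gene. The unadjusted edgeR p-values, 0.0057 for Zfp719 and 0.012 for Zfp787, did not pass after adjustment over all genes tested.

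In the Drosha knockout against WT, no Zfp gene was called, where 3.44% of all genes were (2.48% higher and 0.966% lower). The estimate was above 0 for 83 of 147 genes (56.5%; 49.6% of all genes), with a median of 0.12 beside -0.01. Without the first Drosha library the median was -0.13 beside -0.04, so its direction rests on that library. Both libraries lay above both WT libraries for 34 genes (25.9% of all genes did) and below them for 24 (27.9%). At an unadjusted p under 0.05, 9 genes were higher (6.12%; 11.1% of all genes) and 1 was lower (0.68%; 8.13%). Limma-voom called none. DESeq2 called 2.72%, where 8.85% of all genes were called in either direction, namely 4 as higher: Zfp652, Zfp697, Zfp827 and Zfp750. These were also the 4 with the smallest p in edgeR, with 1.56 for Zfp652 (adjusted p = 0.066), 1.98 for Zfp827 (adjusted p = 0.096), 2.68 for Zfp697 (adjusted p = 0.1) and 1.75 for Zfp750 (adjusted p = 0.12). Zfp750, a regulator of epidermal differentiation, had 1.57 and 3.32 CPM in WT and 8.97 and 7.86 CPM in the Drosha knockout. Zfp697 had 3.23 and 1.58 CPM in WT, 19.5 and 10.9 CPM in the Drosha knockout, and 8.98 and 1.51 CPM in the Ago knockout, where the groups overlapped. The Drosha libraries were shallow: 39 and 48 of the 148 genes had under 10 counts, and 5 were at 0 in the second library (Zfp959, Zfp534, Zfp991, Zfp992 and Zfp788).

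In the Dicer knockout against WT, 2 Zfp genes rose, Zfp827 and Zfp652, and none fell. This is 1.36% of the 147 genes as higher, where 7.35% of all genes were higher and 3.76% lower (11.1% in either direction), so the share of called genes was below the background. The estimate was above 0 for 94 of 147 (63.9%; 49.8% of all genes), with a median of 0.19 beside 0.00. Both libraries lay above both WT libraries for 51 genes (32.7% of all genes did) and below them for 31 (34.6%). At an unadjusted p under 0.05, 10 were higher (6.8%; 15.1% of all genes) and 3 were lower (2.04%; 11.9%).

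Zfp827 (ENSMUSG00000071064, chr8:79028437-79193766) encodes a protein of 1078 residues with 9 fingers and no KRAB box, known for recruiting the NuRD chromatin remodelling complex. Its footprints were at 1.75 and 1.58 CPM in WT, 2.97 and 1.79 CPM in the libraries labelled Dgcr8 knockout, 7.91 and 5.24 CPM in the Drosha knockout, 19.4 and 12.7 CPM in the Dicer knockout, and 7.43 and 3.82 CPM in the Ago knockout. All 8 knockout libraries lay above both WT libraries, the Dicer libraries highest. The change in the Dicer knockout was 3.29 (SE 0.58, edgeR adjusted p = 0.0056). It was 1.75 in the Ago knockout (adjusted p = 0.11) and 0.58 in the libraries labelled Dgcr8 knockout (adjusted p = 0.8), neither called. The Dicer value was over that of the libraries labelled Dgcr8 knockout by 2.70 (SE 0.57, edgeR adjusted p = 0.025). Dicer against Drosha (1.31, adjusted p = 0.65) and Ago against Dicer (-1.54, adjusted p = 0.25) did not pass. The values rest on few counts, 19 and 38 in WT, 9 in the second library labelled Dgcr8 knockout and 98 and 23 in the Dicer knockout. The Dicer call was lost without the first or the second WT library (adjusted p = 0.053 and 0.088) and without the first Dicer library (0.07), and the difference from the libraries labelled Dgcr8 knockout was lost without any 1 of those 4 libraries (0.052 to 0.29).

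Zfp652 (ENSMUSG00000075595, chr11:95712673-95835115) encodes a transcriptional repressor of 608 residues with 7 fingers and no KRAB box. It had 10.8 and 8.5 CPM in WT, 16 and 14.9 CPM in the libraries labelled Dgcr8 knockout, 33.2 and 23.6 CPM in the Drosha knockout, 26.9 and 27.6 CPM in the Dicer knockout, and 25 and 11.4 CPM in the Ago knockout. Every knockout library lay above both WT libraries, and the Drosha and Dicer groups overlapped. The change in the Dicer knockout was 1.50 (SE 0.41, edgeR adjusted p = 0.038), and those in the libraries labelled Dgcr8 knockout (0.69, adjusted p = 0.62) and the Ago knockout (0.91, adjusted p = 0.23) were not called. Dicer against the libraries labelled Dgcr8 knockout was 0.81 (adjusted p = 0.31). The call was lost without either WT library (adjusted p = 0.14 and 0.27), without either Dicer library (0.16 and 0.13) and in limma-voom (0.056).

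Zfp genes just outside the threshold in the Dicer knockout were Zfp819 (1.70, adjusted p = 0.051), Zfp704 (1.21, adjusted p = 0.056), Zfp936 (1.59, adjusted p = 0.057) and, in the other direction, Zfp516 (-1.14, adjusted p = 0.066), a regulator of brown fat genes; these were picked after their values were seen. Zfp704 had 11.3 and 12.3 CPM in WT and 29.1 and 25.4 CPM in the Dicer knockout. Its 3′ UTR of 11767 bases, the longest of the set, held 1 AGCACTT and 3 GCACTTT. No share among genes of like UTR length was computed for it. Those of Zfp819, Zfp936 and Zfp516 held neither motif. Zfp516 had 59.7 and 70.6 CPM in WT and 38.6 and 19.3 CPM in the Dicer knockout. DESeq2 called 7 Zfp genes as higher and 1 as lower in this comparison (5.44%, where 17.1% of all genes were called), the lower one being Zfp516.

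In the Ago1&Ago2 double knockout against WT, a single Zfp gene rose, Zfp819, and none fell (0.68% as higher, where 1.98% of all genes were higher and 0.902% lower, 2.88% in either direction). The estimate was above 0 for 80 of 147 (54.4%; 52.6% of all genes), with a median of 0.05 beside 0.04, and of -0.01 beside 0.01 without the second Ago library. Both libraries lay above both WT libraries for 39 genes (27.2% of all genes did) and below them for 35 (26.1%). At an unadjusted p under 0.05, 9 were higher (6.12%; 11.8% of all genes) and 7 were lower (4.76%; 7.94%). With a KRAB box the median was -0.07, and without it 0.18.

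Zfp819 (ENSMUSG00000055102, chr7:43607169-43618285) encodes a KRAB protein of 607 residues with 9 fingers that is linked to repression of endogenous retroelements. It had 4.79 and 2.82 CPM in WT, 11.5 and 21.9 CPM in the libraries labelled Dgcr8 knockout, 11.6 and 5.68 CPM in the Drosha knockout, 11.9 and 12.7 CPM in the Dicer knockout, and 18.7 and 15.2 CPM in the Ago knockout. All 8 knockout libraries lay above both WT libraries. The change in the Ago knockout was 2.17 (SE 0.49, edgeR adjusted p = 0.04), and that in the Drosha knockout was 1.18 (adjusted p = 0.24). Ago against the libraries labelled Dgcr8 knockout was 0.04 (adjusted p = 0.98), and Ago against Drosha was 0.99 (adjusted p = 0.59). The Ago call was lost without either WT library (adjusted p = 0.13 and 0.43), either Ago library (0.1 and 0.066) or either Dicer library (0.061 and 0.069).

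**Figure D3:**
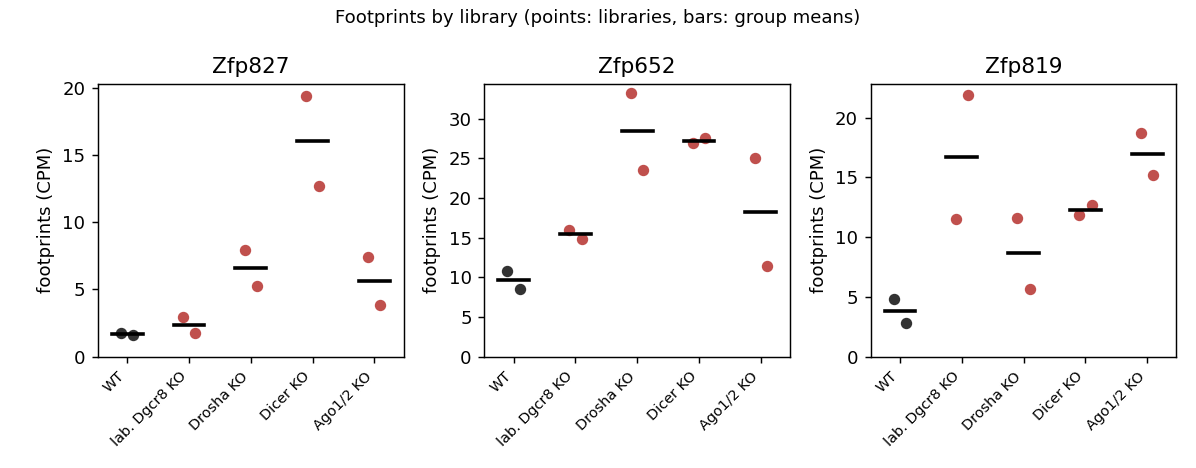
Footprints (CPM, each panel with its own axis from 0) of Zfp827, Zfp652 and Zfp819 in each of the 10 libraries; points are libraries and bars are means of 2. For Zfp827 the Dicer libraries (19.4 and 12.7) are the highest, and for all 3 genes the 8 knockout libraries lie above both WT libraries.

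Over the mean of the 4 knockouts against WT, Zfp819 (1.80, SE 0.43, edgeR adjusted p = 0.03) and Zfp827 (1.90, SE 0.49, adjusted p = 0.04) rose and no Zfp gene fell. This is 1.36% as higher, where 3.81% of all genes were higher and 3.26% lower (7.07% in either direction). The estimate was above 0 for 87 genes (59.2%; 49.8% of all genes). Without the first or second WT library the adjusted p was 0.13 and 0.41 for Zfp819 and 0.25 and 0.41 for Zfp827. Without the first or second Dicer library it was 0.051 and 0.056 for Zfp819 and 0.091 and 0.064 for Zfp827, and for Zfp827 it was 0.054 without the first Drosha library. With no adjustment, 16 Zfp genes were higher at p under 0.05 (10.9%; 12.8% of all genes) and 2 lower (1.36%; 10.9%). All 8 knockout libraries lay above both WT libraries for 17 of 147 genes (11.6%; 8.15% of all genes) and below them for 3 (2.04%; 8.05%), namely Zfp956, Zfp516 and Zfp637. The 4 comparisons share the WT libraries, so their values for a gene are not independent. Zfp637 had 4.43 and 3.61 CPM in WT, 2.79 and 3.59 CPM in the libraries labelled Dgcr8 knockout, 2.64 and 2.62 CPM in the Drosha knockout, 1.19 and 1.1 CPM in the Dicer knockout, and 0.495 and 1.87 CPM in the Ago knockout, with no comparison called.

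**Figure D4:**
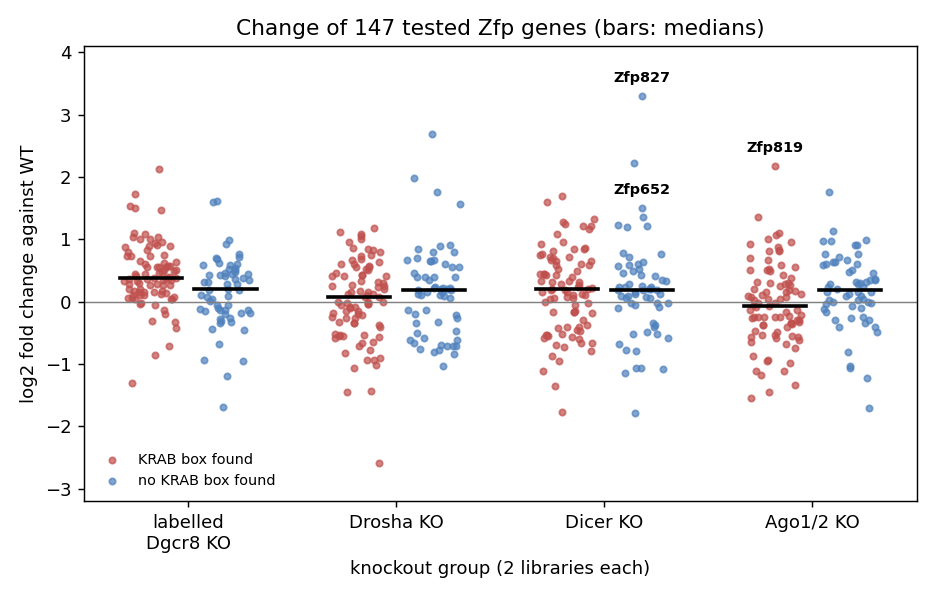
Log2 fold change against WT of the 147 tested Zfp genes in each knockout group, split by whether a KRAB box was found; bars are medians and named points are called. The median of the 87 KRAB genes is 0.38 in the libraries labelled Dgcr8 knockout and -0.07 in the Ago knockout, and Zfp827 (3.29) is the highest point.

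Between knockout groups, Zfp827 in Dicer against the libraries labelled Dgcr8 knockout was the only call by edgeR in the 6 pairs (0.68% as higher, where 3.19% of all genes were higher and 0.884% lower, 4.07% in all). That pair had 4 higher genes (11.5% of all genes) and 3 lower (7.49%) at an unadjusted p under 0.05. No Zfp gene was called in Drosha against the libraries labelled Dgcr8 knockout (background 0.501%), Ago against them (0.483%), Dicer against Drosha (0.00911%), Ago against Drosha (0.0455%) or Ago against Dicer (0.547%). Without adjustment, at p under 0.05, these 5 pairs gave 3, 3, 3, 1 and 0 higher Zfp genes, where 6.8%, 7.87%, 4.06%, 4.94% and 5.98% of all genes were higher. They gave 10, 15, 2, 4 and 10 lower Zfp genes, where 4.65%, 4.6%, 3.49%, 4.31% and 6.27% of all genes were lower, so the 10 of 147 in Ago against Dicer (6.8%) lay near that background. In Ago against the libraries labelled Dgcr8 knockout, 45 of 147 estimates were above 0 (30.6%; 51.7% of all genes), with a median of -0.23, and 15 genes were lower at an unadjusted p under 0.05 (10.2%; 4.6% of all genes). The smallest adjusted p-values there belonged to Zfp985 (-1.32, SE 0.28, 0.072), Zfp990 (-1.38, SE 0.30, 0.072), Zfp980 (-1.74, SE 0.41, 0.089) and Zfp600 (-2.28, SE 0.55, 0.099), none of which passed edgeR's test. DESeq2 called 7 Zfp genes as lower in that pair (4.76%, where 3.27% of all genes were called in either direction). Limma-voom called 9 as lower and 2 as higher (7.48%, where 3.97% of all genes were called). Over the 6 pairs together DESeq2 called 12 and limma-voom 13. Of all genes, DESeq2 called between 0.61% and 8.13% in a pair, and limma-voom between 0% and 4.81%.

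The 4 genes just named are KRAB genes on chromosome 4. The 15 KRAB genes of that chromosome lie between positions 145510759 and 147848366 and belong to a cluster that is known for repressors of endogenous retroviruses and for recent gene duplication. This group was picked after its values were seen and gets no test. Its members shared between 19.7% and 98.7% of their coding 28-mers with another gene (median 83), so reads may have been moved. Which other gene was not recorded, and a sum removes only shifts of reads among the members. Their summed footprints were 290 and 221 CPM in WT, 432 and 378 CPM in the libraries labelled Dgcr8 knockout, 262 and 175 CPM in the Drosha knockout, 302 and 291 CPM in the Dicer knockout, and 181 and 140 CPM in the Ago knockout. The libraries labelled Dgcr8 knockout and the Dicer libraries lay above both WT libraries, the Ago libraries lay below them, and the Drosha libraries overlapped WT.

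Against WT, all 14 tested members of the cluster had estimates above 0 in the libraries labelled Dgcr8 knockout (median 0.64, range 0.06 to 1.10). In the Drosha knockout 13 of the 14 were below 0 (median -0.26), in the Dicer knockout 10 were above 0 (median 0.25), and in the Ago knockout 13 were below 0 (median -0.67). None was called by edgeR, DESeq2 or limma-voom in these 4 comparisons, and at an unadjusted p under 0.05 there were 2 of 14 higher in the libraries labelled Dgcr8 knockout (5.1% of all genes) and 3 of 14 lower in the Ago knockout (7.94% of all genes). Zfp992 had 3 counts over the Drosha libraries, and without it 12 of 13 were below 0 in the Drosha knockout. In Ago against the libraries labelled Dgcr8 knockout, all 14 were below 0 (median -1.35, range -2.28 to -0.15) and 8 had an unadjusted p under 0.05, with 0 called by edgeR. DESeq2 called Zfp990, Zfp985, Zfp600, Zfp980, Zfp982 and Zfp978 of the cluster as lower. Limma-voom called those genes and also Zfp981 and Zfp984 as lower. With the replicate number as a block, edgeR called Zfp980, Zfp600, Zfp990, Zfp985 and Zfp981 as lower, where 1.82% of all genes were called. Zfp990 is the member with the most footprints, with 82.3 and 61.6 CPM in WT, 133 and 134 CPM in the libraries labelled Dgcr8 knockout, 84.4 and 56.8 CPM in the Drosha knockout, 93.7 and 99.8 CPM in the Dicer knockout, and 58.9 and 43.6 CPM in the Ago knockout. Zfp985 had 36.4 and 29.6 CPM in WT, 61.5 and 47.6 CPM in the libraries labelled Dgcr8 knockout and 20.6 and 23.1 CPM in the Ago knockout. In both genes the libraries labelled Dgcr8 knockout were the highest group and the Ago libraries the lowest.

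**Figure D5:**
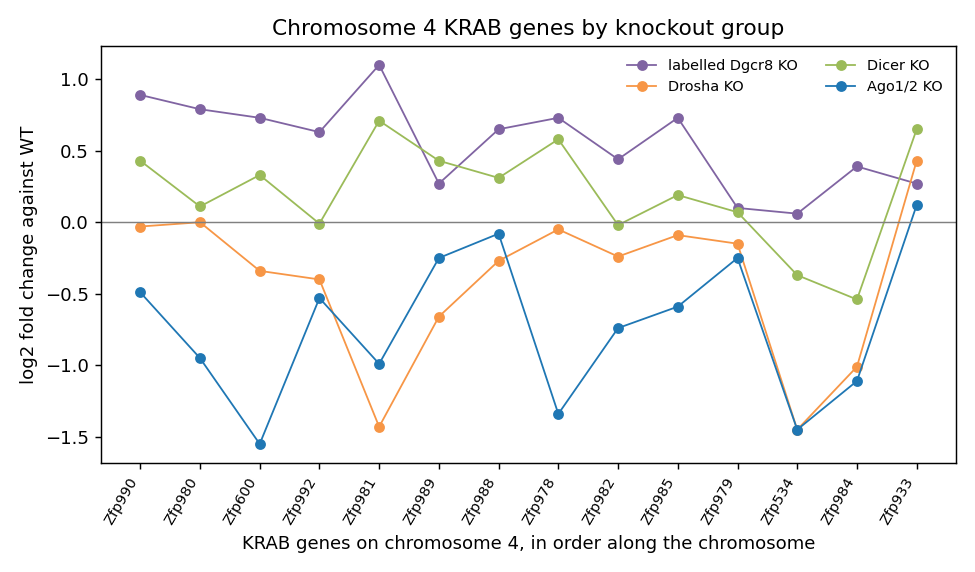
Log2 fold change against WT of the 14 tested KRAB genes on chromosome 4, in their order along the chromosome, with 1 line per knockout group. Values in the libraries labelled Dgcr8 knockout are all above 0 (0.06 to 1.10), and 13 of 14 Ago values are below 0; the Drosha value of Zfp992 rests on 3 counts.

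The sums of KRAB genes on other chromosomes were in the same order of group means on chromosome 17 and in other orders on chromosomes 7 and 8. The 17 on chromosome 17 summed to 153 and 137 CPM in WT, 186 and 188 CPM in the libraries labelled Dgcr8 knockout, 160 and 126 CPM in the Drosha knockout, 154 and 158 CPM in the Dicer knockout, and 125 and 139 CPM in the Ago knockout. The libraries labelled Dgcr8 knockout and the Dicer libraries lay above both WT libraries there, as on chromosome 4, while the Drosha and Ago libraries overlapped WT. The 21 on chromosome 7 summed to 306 and 298 CPM in WT, 429 and 408 CPM in the libraries labelled Dgcr8 knockout, 352 and 363 CPM in the Drosha knockout, 333 and 350 CPM in the Dicer knockout, and 321 and 323 CPM in the Ago knockout. Each knockout group lay above WT there. The 10 on chromosome 8 summed to 113 and 126 CPM in WT, 128 and 128 CPM in the libraries labelled Dgcr8 knockout, 112 and 82.6 CPM in the Drosha knockout, 96.5 and 85.5 CPM in the Dicer knockout, and 82.8 and 103 CPM in the Ago knockout. The libraries labelled Dgcr8 knockout lay above both WT libraries there and the other knockout libraries lay below them.

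Among members grouped by known role, the retroelement and imprint repressors had 20 of 29 listed genes in the table and 19 tested, 11 of them from the chromosome 4 cluster. Their medians were 0.65 in the libraries labelled Dgcr8 knockout, -0.27 in the Drosha knockout, 0.24 in the Dicer knockout and -0.49 in the Ago knockout. Over all genes the medians were 0.02, -0.01, 0.00 and 0.04. The only call was Zfp819 in the Ago knockout, 1 of 19, where 2.88% of all genes were called. Zfp809, which recognises the primer binding site of retroviruses, had 24.7 and 28.7 CPM in WT, 53.9 and 50 CPM in the libraries labelled Dgcr8 knockout, 56.4 and 28.8 CPM in the Drosha knockout, 50.4 and 44.7 CPM in the Dicer knockout, and 47.8 and 28.5 CPM in the Ago knockout. The libraries labelled Dgcr8 knockout and the Dicer libraries lay clear of WT, with changes of 0.96 (adjusted p = 0.4) and 0.84 (adjusted p = 0.16) that did not pass. Zfp568 had 110 and 133 CPM in WT and group means of 157 ± 3.63, 149 ± 25.5, 109 ± 8 and 98.7 ± 6.81 CPM (SD, n = 2) in the order Dgcr8 label, Drosha, Dicer and Ago, with none called. Zfp932, a repressor of endogenous retroviruses, had 2.11 ± 0.28 CPM in WT (SD, n = 2) and no called change.

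The developmental and chromatin regulators without a KRAB box had 19 of 28 listed genes in the table, all tested. Their medians were 0.41, 0.35, 0.42 and 0.58 in the same order. The calls were Zfp827 and Zfp652 in the Dicer knockout, 2 of 19, where 11.1% of all genes were called. Zfp638, which takes part in silencing of unintegrated retroviral DNA, had the most footprints of the 148 genes in WT, 155 and 138 CPM. It had 209 and 242 CPM in the libraries labelled Dgcr8 knockout, 238 and 149 CPM in the Drosha knockout, 258 and 220 CPM in the Dicer knockout, and 210 and 272 CPM in the Ago knockout. Its changes of 0.62, 0.40, 0.71 and 0.72 were not called (adjusted p between 0.14 and 0.52). Zfp706, a small protein that affects self-renewal of embryonic stem cells, had 7.17 ± 0.812 CPM in WT (SD, n = 2) and no called change.

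The 3 ribosome-related genes did not pass the test in any knockout, also at an unadjusted p under 0.05. Zfp598, the ubiquitin ligase that marks collided ribosomes, had 78 and 91.2 CPM in WT, 67.3 and 82.3 CPM in the libraries labelled Dgcr8 knockout, 85.5 and 102 CPM in the Drosha knockout, 61.1 and 66.7 CPM in the Dicer knockout, and 111 and 57 CPM in the Ago knockout. Only the Dicer libraries lay below both WT libraries, with a change of -0.41 (adjusted p = 0.46). Zfp622 had 129 ± 15 CPM in WT and Zfp593 had 42.2 ± 3.52 CPM (SD, n = 2 each).

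The proteins through which KRAB genes act were measured for 48 of 49 listed genes. Trim28 had 2881 and 3199 CPM in WT and changes of -0.28, -0.13, -0.42 and -0.29 in the order Dgcr8 label, Drosha, Dicer and Ago, none called (adjusted p between 0.46 and 0.87). Setdb1 had 150 and 167 CPM in WT and changes of 0.57, 0.90, 0.92 and 0.55, none called (adjusted p between 0.1 and 0.63). Mta3, a subunit of the NuRD complex, was the only gene of the list to rise, from 106 and 115 CPM in WT to 301 and 356 CPM in the Drosha knockout (1.57, SE 0.28, edgeR adjusted p = 0.018) and 319 and 341 CPM in the Dicer knockout (1.58, SE 0.28, adjusted p = 0.0061). It had 81.6 and 128 CPM in the libraries labelled Dgcr8 knockout (-0.09, adjusted p = 0.96) and 176 and 205 CPM in the Ago knockout (0.78, adjusted p = 0.15). The Mta3 calls were lost without either WT library, and in the Drosha knockout also without the second Drosha library. No gene of the list was called in the libraries labelled Dgcr8 knockout or in the Ago knockout by edgeR. At an unadjusted p under 0.05, 2 of 48 were higher and 0 lower in the former (5.1% and 4.71% of all genes) and 7 were higher and 2 lower in the latter (11.8% and 7.94%), and DESeq2 called 1 and 2. The same counts were 7 and 3 in the Drosha knockout (11.1% and 8.13%) and 9 and 1 in the Dicer knockout (15.1% and 11.9%).

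Zfp genes with and without matches to the microRNA seeds shown above were also described by their median change. The 18 tested genes with GCACTTT had medians of 0.34, 0.49, 0.41 and 0.47 in the order Dgcr8 label, Drosha, Dicer and Ago, and the 121 without had 0.35, 0.11, 0.13 and 0.02. Over all genes, the medians with GCACTTT were 0.05, 0.15, 0.24 and 0.12, and without it 0.01, -0.03, -0.04 and 0.02. The 24 Zfp genes with AGCACTT had medians of 0.36, 0.13, 0.23 and 0.18, and the 115 without had 0.32, 0.13, 0.18 and 0.04. These motifs were singled out because genes called in the same data hold them. Zfp827 and Zfp652 are among the 18, and Zfp827 is among the 24. The other motifs searched were not described in this way, and the lists were not matched for UTR length. These medians are descriptions of the lists, and no difference between genes with and without a match was tested.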

How the data were processed

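Ribosome footprints of 10 libraries, 2 in each of 5 groups, were analysed. The deposited table, made by the authors, holds raw read counts for each gene, whole numbers that were not normalized. The tools Trimmomatic and Bowtie2 and the builds mm10 (GRCm38) and dm6 (BDGP6) are named, per the submitters' processing notes; the counting tool, annotation and strand setting are not given in the sources used here. Antisense or overlapping genes and close copies therefore cannot be told apart fully. Columns were matched to samples by the names in the labels; replicate numbers of the Ago columns differ from those in the sample titles, which were followed.

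Counts were analysed with edgeR 4.0.16 in R 4.3.3: TMM scaling, filterByExpr by group (10978 genes kept, 33 removed), and a quasi-likelihood fit with 1 mean per group over all 10 libraries (5 residual degrees of freedom, biological coefficient of variation 0.306). Tests were 2-sided with Benjamini-Hochberg adjustment within each comparison at 0.05, and the script was tested on simulated data. The SE was obtained by dividing the size of the log2 fold change by the root of its F statistic. CPM uses scaled library sizes, and the floor is 3 counts over them; it covers counting error only, since PCR copies are not independent molecules. Coordinates, coding sequences and 3′ UTRs came from GENCODE M21 (GRCm38). Fingers and KRAB boxes were searched in GENCODE translations, where RefSeq proteins had been planned but were not used here.

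Alternatives were DESeq2 size factors, total-count scaling, DESeq2 1.42.0, limma-voom (limma 3.58.1), no filter, a filter of 20 counts in both libraries of a group, the 2 compared groups alone, the replicate number as a block, and each library left out; a count over genes with at most 50% shared 28-mers was added after seeing the data. The members and lists were chosen with earlier results of these data known. Named were the genes called in each comparison, or the 4 with the smallest p where none was, fixed members of the role lists, the 6 genes with the highest WT density and genes at 0, except where stated.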

Additional observations from a re-analysis of the deposited data

Results flagged for a closer look

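The footprint change of Zfp827 differed between 2 knockout groups: the Dicer knockout lay above the libraries labelled Dgcr8 knockout by 2.70 on the log2 scale (SE 0.57, edgeR adjusted p = 0.025). Each of the 2 Dicer libraries (19.4 and 12.7 CPM) was above each of the 2 libraries labelled Dgcr8 knockout (2.97 and 1.79 CPM). The call was lost when either library of either group was left out, and it rests on few counts. Footprints on Dgcr8 itself were higher than WT in the libraries labelled Dgcr8 knockout, as in the other knockout groups. The meaning of that label for the Zfp827 difference was not tested.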

How the results depend on the processing

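Zfp calls were few and varied with the test and the libraries. DESeq2 called 1 Zfp gene in the libraries labelled Dgcr8 knockout, 4 in Drosha, 8 in Dicer and 2 in Ago. It called 7 over the mean of the knockouts (4.76%, where 13.2% of all genes were called) and 12 over the 6 pairs. In the same order edgeR called 0, 0, 2, 1, 2 and 1. Limma-voom called 1 in Dicer, 2 in Ago and 13 over the pairs. A fit of the 2 compared groups alone called 2 in Drosha (1.41% of Zfp genes; 5.21% of all genes) and 13 in Dicer (8.97%; 29.5%). Leaving out 1 library gave 0 to 0 in the libraries labelled Dgcr8 knockout, 0 to 2 in Drosha, 0 to 5 in Dicer, 0 to 1 in Ago, 0 to 4 over the mean and 0 to 2 over the pairs. For the KRAB machinery list, DESeq2 called 1, 2, 4 and 2 genes in the order Dgcr8 label, Drosha, Dicer and Ago, limma-voom 2 in Dicer and 2 in Ago, and the fit of 2 groups 10 in Dicer, where edgeR called 0, 1, 1 and 0; leaving out 1 library gave 0 to 0, 0 to 1, 0 to 2 and 0 to 0. Over all genes, edgeR called 8, 378, 1220 and 316 genes DESeq2 160, 972, 1874 and 932, and limma-voom 15, 111, 1045 and 942 in the same order; over the mean of the knockouts edgeR called 776, and 3 without the second WT library. Scaling by DESeq2 size factors or total counts and either filter kept these counts within 1.5 times. The causes were not tested.

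The Dgcr8 change in its own libraries was 2.14 in the fit of 2 groups, no longer past the threshold (adjusted p = 0.098), and lost the call in 3 of the fits without 1 library (adjusted p up to 0.44). Over the libraries left out it ranged from 2.14 to 2.16, Drosha from -2.86 to -2.36, Dicer1 from -2.96 to -2.47, Ago2 from -3.63 to -2.45 and Ago1 from -0.44 to 0.90; the Ago1 change reversed to -0.44 without the first Ago library. A stricter KRAB motif was found in 79 genes against 88. The median WT density was 4.34 with total-count scaling against 4.38.

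With the replicate number as a block, edgeR called 0 Zfp genes in the libraries labelled Dgcr8 knockout, 1 in Drosha, 6 in Dicer, 2 in Ago (1 of them Zfp600 of the chromosome 4 cluster, as lower), 5 over the mean and 8 over the pairs, and 0, 1, 5 and 2 genes of the machinery list. Over all genes that fit called 14, 770, 1877 and 738 genes, so in Dicer it called 17.1% of all genes and 4.08% of Zfp genes. Deviations of same-numbered libraries correlated positively over genes for every pair of groups, between 0.061 and 0.287. Only the pair of Dgcr8 label and Drosha (0.061) was not over 0.1, and the numbers were not taken as pairing. The block used the title numbers of the Ago libraries, which differ from their column numbers, and the effect of that choice was not tested.

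Depth limits the low genes most: 48 of 148 had under 10 counts in the second Drosha library and 45 in the second Dicer library, the shallowest. Zfp959 had 1 count over the 2 Drosha libraries, Zfp947 and Zfp992 had 3, and Zfp991 had 2 in Drosha and 2 in Dicer, so no single fold is quoted for them; Zfp992 stays in the counts and the plot of the chromosome 4 genes. The median change of the Zfp genes ranged over the libraries left out from 0.26 to 0.37 in the libraries labelled Dgcr8 knockout, -0.13 to 0.15 in Drosha, 0.12 to 0.20 in Dicer and -0.01 to 0.09 in Ago.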

Other observations

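The 6 KRAB genes on chromosome 9 summed to 50.3 and 54.7 CPM in WT, 99.3 and 85.7 CPM in the libraries labelled Dgcr8 knockout, 93.9 and 53.7 CPM in the Drosha knockout, 80.9 and 74.5 CPM in the Dicer knockout, and 89.1 and 61.8 CPM in the Ago knockout. All but 1 Drosha library lay above both WT libraries. The 6 on chromosome 13 summed to 47.2 and 42.5 CPM in WT, 72.7 and 52 CPM in the libraries labelled Dgcr8 knockout, 57.5 and 48.1 CPM in the Drosha knockout, 74 and 72.3 CPM in the Dicer knockout, and 53.5 and 44.1 CPM in the Ago knockout. The Dicer group had the highest mean there, and its libraries overlapped those labelled Dgcr8 knockout. These groups were chosen after their values were seen and were not tested.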
